A study of Mus musculus with 3 samples.

Results

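The transcripts described here are 10 target genes of the tumour suppressor p53, followed through 3 single-cell libraries of mouse skin with and without ultraviolet B (UVB) light. The members were taken by symbol: Cdkn1a, Mdm2, Bax, Ccng1, Trp53inp1, Gadd45a, Phlda3, Sesn2, Bbc3 and Pmaip1, and all 10 were found among the 32285 genes of the count matrices. For each library, unique molecular identifiers (UMIs, 1 per captured transcript) of a gene were summed over keratinocyte-like, fibroblast-like and immune cells and scaled to the total UMI count of those same cells, giving a level in UMIs per 1000000 UMIs (UPM). The rule itself uses symbols only, although the genes were chosen with earlier results of these data known.

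UVB forms photoproducts in DNA, and keratinocytes are known to stabilise p53 in answer to them. The p53 protein is a transcription factor that binds paired half-sites in DNA and switches on genes for cell cycle arrest, apoptosis, DNA repair and its own removal. The p53 protein is controlled mostly by its breakdown, so the Trp53 transcript need not follow its activity. Several of its targets, Cdkn1a and Gadd45a among them, are also transcribed without p53, for example in differentiating keratinocytes and in myeloid cells.

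The libraries came from dorsal skin of 8-week-old male C57Bl/6 mice in the resting phase of the hair cycle, dissociated and enriched for CD45+ cells on magnetic beads, with 1 animal per library. WTctrl was wild-type skin without irradiation and WTUV was wild-type skin after 3 UVB exposures. RPUV carried Rosa26-rtTA; Tre-Ptgs2, in which doxycycline drives a rat Ptgs2 gene (the prostaglandin-making enzyme Cox-2) in all tissues, and also received 3 UVB exposures. Skin was taken on the day of the last exposure, and whether the wild-type animals received doxycycline is not given in the sources used here. Because each group had 1 library, no statistical test was made, and the 95% intervals below cover counting error only. They are exact for levels and folds and Wilson intervals for shares of cells, where the cells of 1 library are not independent replicates. A fold is called higher or lower when it reaches 1.5 in either direction, among genes with at least 20 UMIs in both libraries together. The labels place WTctrl and RPUV on the same flow cell and WTUV on another, so sequencing run and group cannot be told apart in comparisons with WTUV, and RPUV against WTctrl differs in both UVB and genotype.

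Cdkn1a (ENSMUSG00000023067) spans chr17:29090979-29100722 in the GRCm38 build (GRCm38.p6 in RefSeq) that the counts are based on, and encodes p21, the inhibitor of cyclin-dependent kinases. Ccng1 (ENSMUSG00000020326, chr11:40748552-40755309) encodes cyclin G1, and Gadd45a (ENSMUSG00000036390, chr6:67035096-67037407) a growth arrest and DNA damage protein. Mdm2 (ENSMUSG00000020184, chr10:117688875-117710758) encodes the ubiquitin ligase that removes p53, and Phlda3 (ENSMUSG00000041801, chr1:135766085-135769134) an inhibitor of Akt signalling. The next 4 members belong to the death programme: Bax (ENSMUSG00000003873, chr7:45461695-45466903) forms pores in mitochondria, Bbc3 (ENSMUSG00000002083, chr7:16308398-16318334) is Puma, Pmaip1 (ENSMUSG00000024521) is Noxa, and Trp53inp1 (ENSMUSG00000028211, chr4:11156441-11174379) acts in stress-induced death and autophagy. Sesn2 (ENSMUSG00000028893, chr4:132492804-132510456) encodes sestrin 2, which restrains growth signalling under stress.

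Promoter windows from 250 bases before to 50 bases after an annotated transcript start were available from RefSeq for 8 of the 10 members, 11 windows in all. They were searched for a p53 response element, here 2 half-sites of 10 bases with the C and G of both cores present, 0 to 13 bases apart and at most 1 base off the consensus in 20. The half-site consensus reads the same on both strands, so a single scan covers both. Such an element lay in 2 of the 11 member windows, against 0.627% of all 32851 windows, and a perfect half-site lay in 5 of the 11, against 8.36% of all. Both windows with an element are shown 5′ to 3′ on the strand of the gene, with the element in capitals, because these are the 2 members that hold one. The window of Phlda3, the member with the largest fold of WTUV over WTctrl in immune cells, held neither an element nor a perfect half-site. A match describes letters only, and the absence of a match in these windows says nothing of binding elsewhere.
Cdkn1a, chr17:29090729-29091028, plus strand: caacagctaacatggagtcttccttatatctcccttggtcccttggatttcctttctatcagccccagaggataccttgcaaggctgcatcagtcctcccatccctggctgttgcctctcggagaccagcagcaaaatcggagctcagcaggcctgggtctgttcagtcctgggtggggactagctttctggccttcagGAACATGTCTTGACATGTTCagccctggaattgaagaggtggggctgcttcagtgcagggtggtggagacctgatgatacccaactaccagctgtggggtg
Ccng1, chr11:40755237-40755536, minus strand: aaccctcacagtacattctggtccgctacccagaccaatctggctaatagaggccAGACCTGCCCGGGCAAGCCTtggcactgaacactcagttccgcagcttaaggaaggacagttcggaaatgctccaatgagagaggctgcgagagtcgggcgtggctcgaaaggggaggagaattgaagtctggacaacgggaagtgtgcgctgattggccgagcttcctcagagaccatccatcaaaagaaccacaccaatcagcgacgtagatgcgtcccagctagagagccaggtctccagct

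In the Cdkn1a window the element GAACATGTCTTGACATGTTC began 51 bases before the more upstream of its 2 annotated starts, with no bases between the half-sites and 1 base off the consensus. A second pair of half-sites in the same window shares GAACATGTCT with it. That pair is further apart, within the allowed spacing, and has no base off the consensus. The pair with the shorter spacer is the one in capitals. The Ccng1 element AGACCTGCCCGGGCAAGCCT began 195 bases before the start, also without a spacer and with 1 base off.

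Filtering left 5309, 5225 and 6070 cells in WTctrl, WTUV and RPUV, with a median of 4246, 10557 and 3774 UMIs per cell, so WTUV was the deepest library. Keratinocyte-like cells numbered 1165, 504 and 933, immune cells 3163, 4192 and 3289, and fibroblast-like cells 197, 4 and 197, so fibroblast-like cells were compared only between RPUV and WTctrl. Names rest on fixed marker genes: the keratinocyte markers summed to between 43469 and 62460 UPM in keratinocyte-like cells and between 306 and 494 in immune cells. Within a class, different clusters often held most cells of each library, so values within a class or subclass compare unlike mixes of cells. Unnamed cells numbered 606, 481 and 998 and entered no class. The libraries shared between 8 and 11 cell barcodes in pairs. Ptgs2, the overexpressed gene, was at 5.71, 5.88 and 683 UPM in the keratinocyte-like cells of WTctrl, WTUV and RPUV, so the library labelled RPUV was the high one. How reads of the rat gene were assigned is not given in the sources used here.

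In keratinocyte-like cells taken as a whole, no member was called between irradiated and unirradiated wild-type skin. Of the 10 members, 0 were higher and 0 lower in WTUV than in WTctrl, where 8.37% of all 11486 genes tested were higher and 14.3% lower. For 10 genes these counts lie near those shares and are not read as particular to the members. Calls within single layers are given below. Cdkn1a stood at 533 UPM in WTctrl (516 to 550), 489 in WTUV (472 to 507) and 257 in RPUV (244 to 269). WTUV over WTctrl gave a fold of 0.918 (0.875 to 0.962), and the direction turned under 3 of 14 alternatives. The 14 include other pseudocounts, which cannot turn a direction. The RPUV library was the low one, at 0.525 times WTUV (0.494 to 0.557) and 0.481 times WTctrl (0.454 to 0.510).

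**Figure D1:**
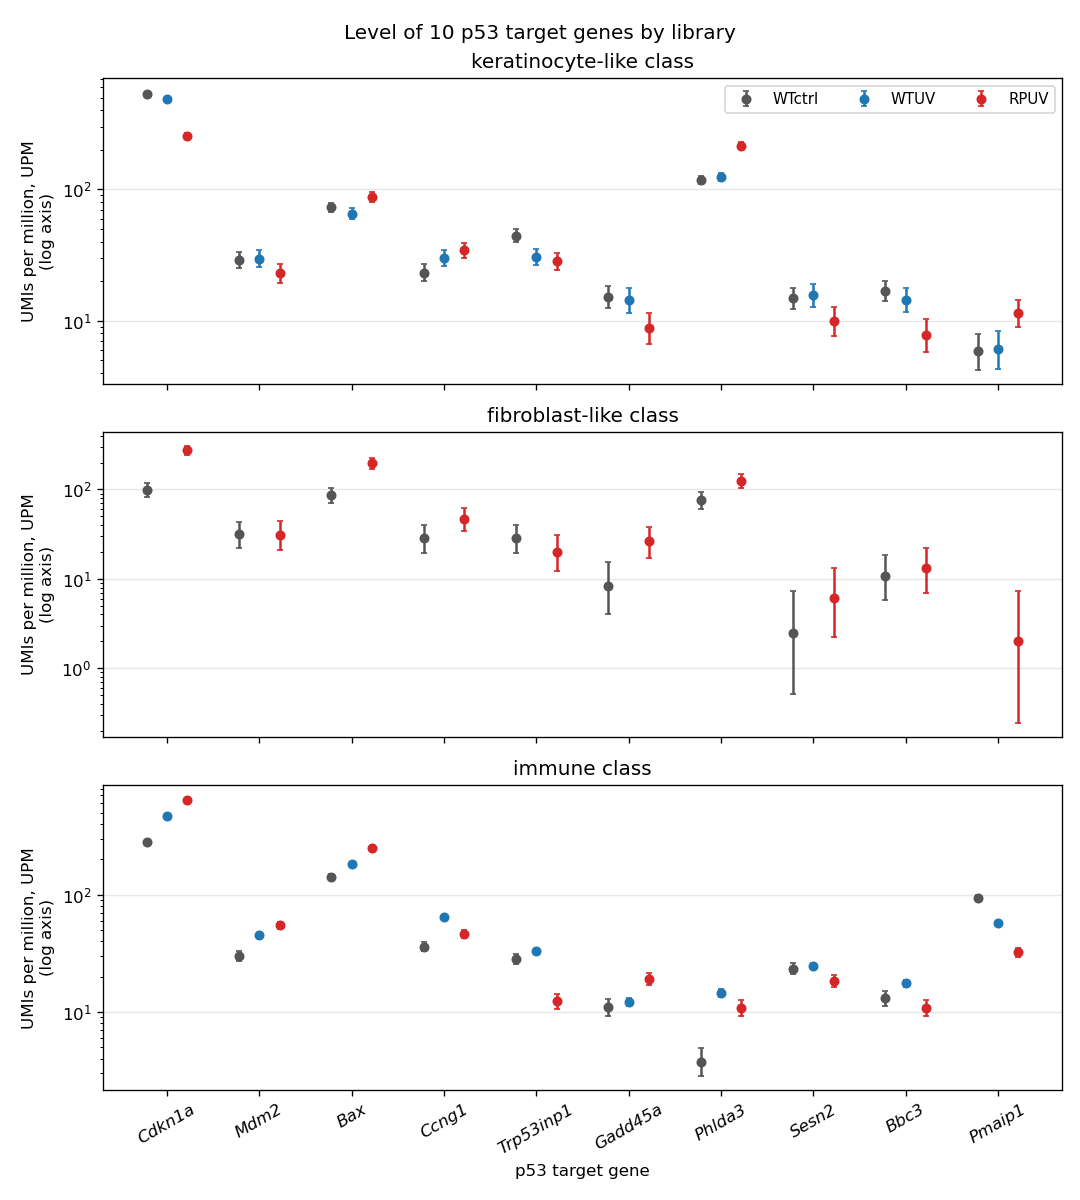
Level of each of the 10 p53 target genes in UPM (vertical log axis) in keratinocyte-like, fibroblast-like and immune cells; points are libraries (WTctrl grey, WTUV blue, RPUV red) and bars exact 95% Poisson intervals. Cdkn1a in keratinocyte-like cells is at 533, 489 and 257 in that order, and in immune cells at 281, 470 and 641; fibroblast-like cells of WTUV (4 cells) and the Pmaip1 count of 0 in WTctrl fibroblast-like cells are not drawn.

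Mdm2, the feedback ligase, was at 29.0, 29.7 and 23.1 UPM in the keratinocyte-like cells of WTctrl, WTUV and RPUV, and its fold of WTUV over WTctrl was 1.03 (0.839 to 1.25). Ccng1 was at 23.3, 30.2 and 34.5, in WTUV 1.30 times WTctrl (1.05 to 1.61) and in RPUV 1.48 times WTctrl (1.21 to 1.82), just inside the limit of 1.5. Phlda3 was at 118, 125 and 216. Its RPUV level was 1.73 times WTUV (1.59 to 1.90) and 1.82 times WTctrl (1.67 to 1.99), which made it 1 of 2 members called higher in RPUV. The other was Pmaip1, at 5.85, 6.04 and 11.5 on 43, 38 and 72 UMIs, with folds of 1.90 (1.27 to 2.89) over WTUV and 1.96 (1.33 to 2.93) over WTctrl.

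RPUV had 4 members lower than WTUV and 4 lower than WTctrl, and 3 of them were lower in both comparisons. Besides Cdkn1a these were Bbc3, at 16.9, 14.5 and 7.82 UPM in WTctrl, WTUV and RPUV, and Gadd45a, at 15.2, 14.3 and 8.77. Sesn2, at 14.8, 15.6 and 9.89, was called lower against WTUV (0.635, 0.454 to 0.881) and lay at the limit against WTctrl (0.667, 0.480 to 0.919). Trp53inp1, at 44.5, 30.7 and 28.5, was called lower against WTctrl (0.642, 0.532 to 0.772) and was already at 0.690 times WTctrl in WTUV (0.574 to 0.827). Bax was at 72.9, 65.4 and 87.2, within the limit in all 3 comparisons. The counts of 2 higher and 4 lower members compare with 14.7% of all genes higher and 13.1% lower for RPUV over WTUV, and with 16.1% higher and 23% lower for RPUV over WTctrl. With cells thinned to 2000 UMIs the log2 fold of Bbc3 in RPUV over WTUV turned from -0.81 to 0.71 and the median of the members there from -0.23 to 0.32, and with all deposited barcodes that of Pmaip1 was -0.00. The median log2 fold of the members was -0.02 for WTUV over WTctrl, -0.23 for RPUV over WTUV and -0.43 for RPUV over WTctrl, beside -0.13, 0.04 and -0.09 over all genes tested.

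**Figure D2:**
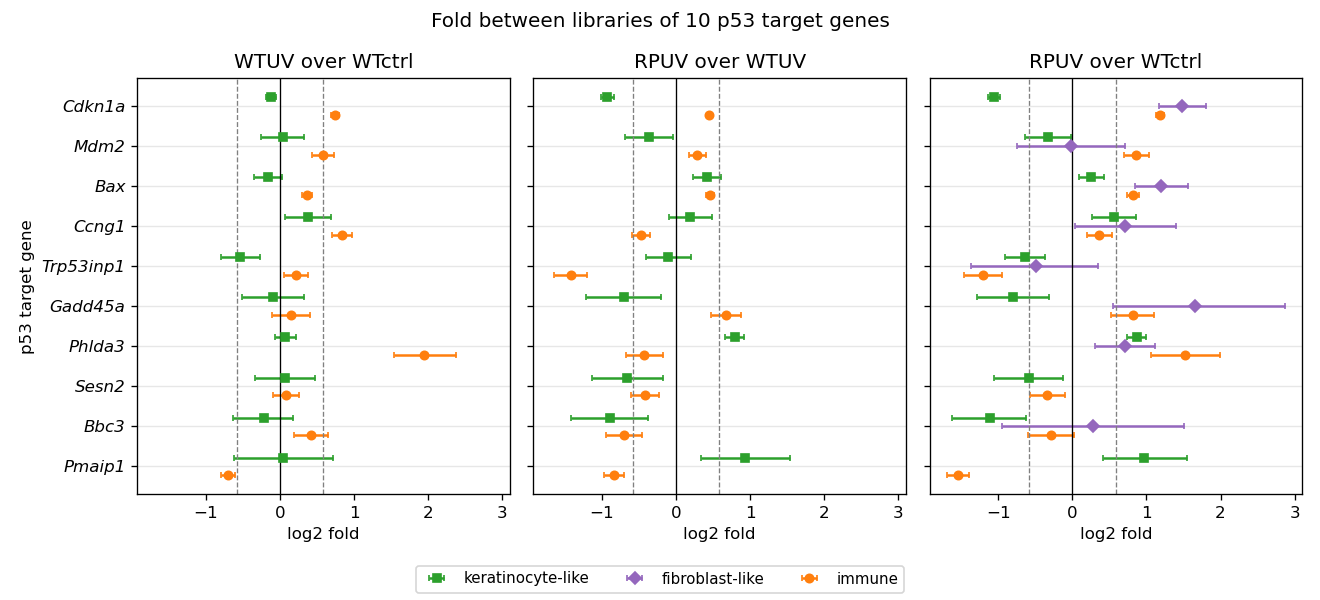
Log2 fold between libraries (horizontal axis) of the 10 genes in keratinocyte-like (squares), fibroblast-like (diamonds) and immune cells (circles), with exact 95% counting intervals as bars and dashed lines at a fold of 1.5. Only genes with at least 20 UMIs in both libraries together are drawn; Cdkn1a lies on opposite sides of 0 for keratinocyte-like and immune cells in RPUV over WTctrl, at folds of 0.481 and 2.28.

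The keratinocyte-like class is a mix of layers, and Cdkn1a differed between them. In suprabasal keratinocyte-like cells, the differentiating layers, it was at 1366 UPM in WTctrl (1291 to 1445), 1055 in WTUV (1006 to 1105) and 552 in RPUV (519 to 587). Basal keratinocyte-like cells, the dividing layer, had 259 (241 to 278), 299 (276 to 324) and 113 (100 to 127). Thus suprabasal cells were the high ones in every library, and RPUV was the low library in both layers. Suprabasal cells held 12.2%, 26.9% and 29.3% of the keratinocyte-like UMIs and 31.2%, 58.0% and 63.1% of those of Cdkn1a in WTctrl, WTUV and RPUV. Without suprabasal cells the folds of Cdkn1a were 0.674 for WTUV over WTctrl (0.630 to 0.720) and 0.321 for RPUV over WTctrl (0.293 to 0.351). What remained was not basal cells alone, in which WTUV was above WTctrl. It also held hair follicle keratinocyte-like cells and 424, 92 and 160 cells without a named layer in WTctrl, WTUV and RPUV. The layers too held unlike clusters: a suprabasal cluster led by Krt16 and Krt6b had 1, 46 and 144 cells in WTctrl, WTUV and RPUV, and a basal cluster led by Fcgbp and Krt15 had 210, 15 and 3. Because the clusters were built from the same transcripts, differences between layers are given as a description.

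Ccng1 was called higher in WTUV than in WTctrl in both layers, although not in the class as a whole. The class also holds hair follicle keratinocyte-like cells and the cells without a named layer. It was at 24.5 UPM in basal cells of WTctrl, 42.9 in WTUV and 40.1 in RPUV, which put WTUV at 1.75 times WTctrl (1.26 to 2.43). In suprabasal cells it was at 15.6, 30.8 and 41.9, with WTUV at 1.97 times WTctrl (1.08 to 3.85, on 52 and 14 UMIs). How many of all genes were called within a layer was not counted, so these calls are not read as particular to Ccng1. Trp53inp1 was called lower in basal cells of WTUV, on 67 UMIs against 152 in WTctrl. In suprabasal cells it was called higher, on 44 against 15, as was Pmaip1, on 18 against 5. Total UMIs of WTUV and WTctrl were 2030025 and 2897863 in basal and 1690471 and 896045 in suprabasal cells. Phlda3 in basal cells was at 101, 111 and 237, and RPUV exceeded WTUV there by 2.13 times (1.82 to 2.49). Hair follicle keratinocyte-like cells had Cdkn1a at 456, 296 and 223, in the same order of libraries as the suprabasal cells, whereas Ccng1 there was at 28.5, 28.1 and 15.1.

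In immune cells 3 of the 10 members were higher in WTUV than in WTctrl by the fold of 1.5. These were Cdkn1a, Ccng1 and Phlda3, where 12% of all 14250 genes tested were higher, and Pmaip1 was the 1 member called lower, where 8.81% of all genes were. Cdkn1a was at 281 UPM in WTctrl (272 to 290), 470 in WTUV (465 to 476) and 641 in RPUV (628 to 653), with WTUV at 1.67 times WTctrl (1.62 to 1.73) and RPUV at 2.28 times (2.20 to 2.37). Ccng1 was at 35.9, 64.1 and 46.2, so WTUV was the highest library at 1.78 times WTctrl (1.62 to 1.96).

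Mdm2 was at 30.2 UPM in immune cells of WTctrl, 45.1 in WTUV and 55.0 in RPUV. Its fold of WTUV over WTctrl, 1.49 (1.35 to 1.66), lay just under the limit, and that of RPUV over WTctrl was 1.82 (1.62 to 2.05). Bax was at 143, 184 and 252, 1.76 times WTctrl in RPUV (1.67 to 1.86). Phlda3 was at 3.78, 14.6 and 10.8 on 53, 779 and 163 UMIs, with WTUV at 3.85 times WTctrl (2.91 to 5.18). Phlda3 is abundant in keratinocyte-like cells, and free keratinocyte RNA at the share that keratinocyte markers show in immune cells would supply 26.3%, 4.98% and 15.8% of these levels. Subtracting it takes a larger share from WTctrl than from WTUV, so it could only raise the fold of Phlda3 in WTUV over WTctrl. The log2 fold was above 0 under all 14 alternatives (0.83 to 2.0), the subtraction included. The 14 include other pseudocounts, by which a sign cannot change.

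RPUV had 5 members called higher than WTctrl in immune cells (Cdkn1a, Mdm2, Bax, Gadd45a and Phlda3) and 2 called lower (Trp53inp1 and Pmaip1), where 14.1% of all genes were higher and 18.6% lower. Against WTUV it had 1 higher (Gadd45a) and 3 lower (Trp53inp1, Bbc3 and Pmaip1), where 11.8% of all genes were higher and 21.3% lower. Trp53inp1 was at 28.4, 33.0 and 12.4 UPM, 0.375 times WTUV in RPUV (0.320 to 0.436). Bbc3, at 13.2, 17.6 and 10.8, was 0.615 times WTUV (0.517 to 0.727). Sesn2, at 23.4, 24.8 and 18.5, stayed within the limit in all 3 comparisons. The median log2 fold of the members was 0.38 for WTUV over WTctrl, -0.40 for RPUV over WTUV and 0.56 for RPUV over WTctrl, beside 0.02, -0.05 and -0.02 over all genes.

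The mix of immune cells differed between the libraries. Neutrophil-like cells numbered 14, 58 and 582 in WTctrl, WTUV and RPUV, and their Cdkn1a level was 1337 (902 to 1909), 1734 (1546 to 1938) and 3146 (3033 to 3261) UPM. They held 6.24% of the immune UMIs of RPUV but 30.7% of its Cdkn1a UMIs and 63.6% of its Gadd45a UMIs. Without them Cdkn1a in RPUV was 1.70 times WTctrl (1.63 to 1.77), and Gadd45a changed direction, from 1.76 times WTctrl (1.44 to 2.15) to 0.709 (0.547 to 0.916). Without them, too, RPUV had 5 members lower than WTUV instead of 3 and 0 higher, beside 22% and 12.1% of all genes. WTUV over WTctrl was little touched, with Cdkn1a at 1.67 (1.61 to 1.73), Ccng1 at 1.80 (1.63 to 1.98) and Phlda3 at 3.85 (2.91 to 5.19). Leaving out neutrophil-like cells could hardly move these folds. In WTctrl and WTUV they held 0.160% and 0.335% of the immune UMIs and 0.763% and 1.24% of those of Cdkn1a.

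Within macrophage or monocyte-like cells the order of the libraries was different for Cdkn1a. It was at 156 UPM in WTctrl (147 to 166), 395 in WTUV (388 to 402) and 389 in RPUV (376 to 403), so both irradiated libraries lay above WTctrl, by 2.53 times (2.37 to 2.70) and 2.49 times (2.32 to 2.68), and their own intervals overlapped. These cells lay in different clusters by library: a cluster led by Hal and Ccl8 had 573, 57 and 8 cells, 1 led by Ccl8 and Cd209d had 72, 518 and 21, and 1 led by Ccl12 and Ccl7 had 2, 40 and 450, so a different mix of cells and a different level within a cell cannot be told apart. A cluster led by Lyve1 and Fcna (12, 11 and 734 cells) and 1 led by Retnla and Lyve1 (570, 85 and 17) had no name at this level and are left out. A cluster led by Ednrb and C6, also with Lyve1 among its leading genes (72, 424 and 5), is counted. Over all mononuclear phagocyte-like cells, which take in these clusters too, Cdkn1a had 2184, 18455 and 5213 UMIs. The total UMIs there were 10385664, 41161292 and 12852007. In macrophage or monocyte-like cells Mdm2 was at 30.1, 45.6 and 50.7 and Ccng1 at 37.3, 63.5 and 45.1. Sesn2 was at 9.37, 16.0 and 8.51, with WTUV at 1.70 times WTctrl (1.31 to 2.26). Bax was at 136, 169 and 280, so RPUV was the high library, at 1.66 times WTUV (1.58 to 1.75).

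T cell-like cells carried Cdkn1a at 146 UPM in WTctrl (122 to 173), 440 in WTUV (420 to 461) and 581 in RPUV (427 to 773, on 40 cells). Their WTUV level was 3.02 times WTctrl (2.52 to 3.64), and Ccng1 there was 1.75 times (1.24 to 2.51) and Mdm2 1.51 times (1.06 to 2.22). Langerhans-like cells, the antigen-presenting cells of the epidermis, had Cdkn1a at 584 (513 to 661), 811 (769 to 854) and 1871 (1685 to 2071), the last on 35 cells. Their Sesn2 went the other way, at 119, 49.5 and 45.5. Dendritic-like cells had Cdkn1a at 443, 374 and 426, within the limit in all 3 comparisons. Pmaip1 was at 94.0, 57.6 and 32.3 UPM in immune cells as a whole, 0.613 times WTctrl in WTUV (0.575 to 0.654). In mononuclear phagocyte-like cells, which here take in the macrophage, monocyte and Langerhans clusters and some of the dendritic ones, Pmaip1 was at 39.5, 39.3 and 22.0, with WTUV at 0.995 times WTctrl (0.892 to 1.11). Outside them stood an immune cluster without a subclass that had Flt3, Cd209e and Pmaip1 among its leading genes, with 217, 78 and 6 cells.

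**Figure D3:**
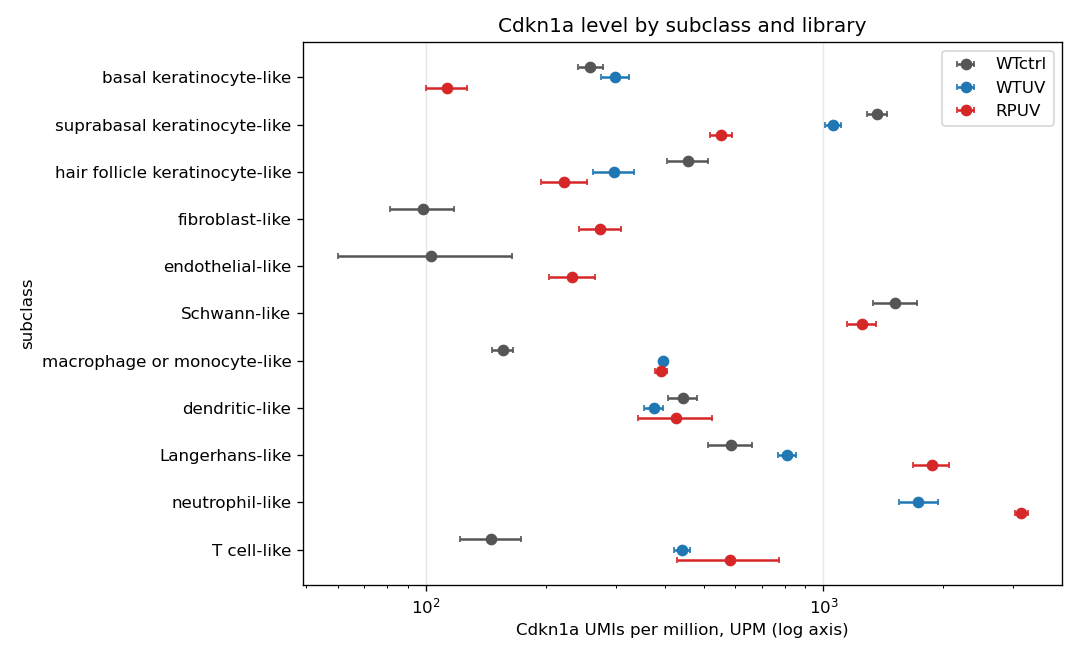
Cdkn1a in UPM (horizontal log axis) by subclass, for libraries with at least 25 cells of it; points are libraries (WTctrl grey, WTUV blue, RPUV red) and bars exact 95% Poisson intervals. RPUV is lowest in the 3 keratinocyte-like subclasses (113, 552 and 223) and highest in neutrophil-like (3146) and Langerhans-like cells (1871).

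Fibroblast-like cells could be compared between RPUV and WTctrl only, on 197 cells each. The cells lay in different clusters, 1 led by Col1a2 and Col1a1 with 107 cells in WTctrl and 13 in RPUV, 1 led by Gpx3 and Hp with 36 and 74, and 1 led by Tnc and Igfbp2 with 14 and 59, so cluster mix and library cannot be told apart here. Of the 10 members 8 passed the count filter, and 5 of them were higher and 0 lower in RPUV, where 24.9% of all 8477 genes tested were higher and 12.2% lower. Cdkn1a was at 98.3 UPM in WTctrl (81.3 to 118) and 274 in RPUV (243 to 309), a fold of 2.79 (2.24 to 3.49). Bax was at 85.8 and 197 (2.29, 1.80 to 2.94) and Phlda3 at 75.8 and 124 (1.64, 1.24 to 2.17). Gadd45a, on 10 and 26 UMIs, had a fold of 3.15 (1.47 to 7.32), and Ccng1, on 34 and 46 UMIs, one of 1.64 (1.03 to 2.63).

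Mdm2 did not follow them, at 31.6 UPM in WTctrl and 31.3 in RPUV, a fold of 0.988 whose interval of 0.594 to 1.63 is wide. Trp53inp1 was at 28.3 and 20.2 and Bbc3 at 10.8 and 13.1, both within the limit. Sesn2 had 3 and 6 UMIs and Pmaip1 0 and 2, below the filter; for Pmaip1 in WTctrl the count of 0 allows up to 2.50 UPM. The median log2 fold of the 8 members was 0.70, against 0.17 over all genes. The fibroblast markers themselves summed to 121457 UPM in WTctrl and 39694 in RPUV, and 7.61% of the RPUV cells against 0.508% of the WTctrl cells also carried markers of a second lineage. Leaving those cells out gave the same 5 members above, beside 24.9% of all genes, and a median of 0.66.

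Endothelial-like cells had Cdkn1a at 103 UPM in WTctrl (59.9 to 165) and 233 in RPUV (204 to 266). Schwann-like cells, the glia of skin nerves, were among the highest of all, at 1518 (1333 to 1721) and 1250 (1149 to 1358), and their RPUV level was not above WTctrl.

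A wider list of 43 p53 targets, which includes the members, was described by role. In keratinocyte-like cells 0 of 40 tested genes were higher and 5 lower in WTUV than in WTctrl, beside 8.37% and 14.3% of all genes, and 3 of the 5 repair genes were among the lower ones: Xpc, which recognises UV lesions, was at 26.3 and 14.5 UPM (0.551, 0.425 to 0.711), Ddb2, its partner in that step, at 13.3 and 7.31 (0.549, 0.378 to 0.787), and Rrm2b, a ribonucleotide reductase subunit, at 22.6 and 13.4 (0.591, 0.449 to 0.774). Btg2, an antiproliferative gene, was at 520 in WTctrl and 186 in WTUV (0.358, 0.335 to 0.382). The 3 listed genes that were not tested had fewer than 20 UMIs in both libraries together. In RPUV over WTctrl 8 of 42 were higher and 11 lower, beside 16.1% and 23% of all genes. Siva1, a death gene, was among the higher, at 72.1 and 139 (1.93, 1.73 to 2.16), and Fas, the death receptor, among the lower, at 22.0 and 10.2 (0.463, 0.341 to 0.622).

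In immune cells 8 of 41 tested genes of the wider list were higher and 2 lower in WTUV than in WTctrl, beside 12% and 8.81% of all genes. Without the members it was 5 of 31 higher and 1 lower, with a median log2 fold of 0.10 beside 0.02 over all genes. Gdf15, a stress-induced secreted factor, was at 9.35 UPM in WTctrl, 22.8 in WTUV and 61.3 in RPUV, so that RPUV was 6.55 times WTctrl (5.45 to 7.93). Aen, an exonuclease of the death programme, and Zmat3, an RNA-binding target, were respectively 1.66 times (1.38 to 2.01) and 1.66 times (1.35 to 2.06) WTctrl in WTUV. The 1 lower gene that is no member, Perp, a component of epidermal junctions, was at 2294 and 1953 UPM in keratinocyte-like cells and at 18.1 and 8.65 in immune cells, about the share that free keratinocyte RNA gives, and is not read as immune expression. In RPUV over WTctrl 12 were higher and 6 lower, beside 14.1% and 18.6% of all genes (7 and 4 of 31 without the members), among the higher ones Fas at 2.22 times (1.88 to 2.64) and Plk3 at 2.14 times (1.85 to 2.47), and among the lower ones Ephx1 at 0.446 (0.381 to 0.520).

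In fibroblast-like cells 14 of 32 tested genes of the wider list were higher and 5 lower in RPUV than in WTctrl, beside 24.9% and 12.2% of all genes. Without the members it was 9 of 24 higher and 5 lower, with a median log2 fold of 0.19 beside 0.17 over all genes. By role, with the members included, the arrest genes had 5 of 6 higher and the metabolism and redox genes 5 of 8. The feedback genes had 2 of 6 higher, the apoptosis genes 2 of 9 and the repair genes 0 of 3. The higher arrest genes include the members Cdkn1a, Ccng1 and Gadd45a, already counted above. Btg2, which is no member, was also among them, at 150 and 320 UPM (2.13, 1.77 to 2.58). Sesn1, a relative of Sesn2, was lower at 36.6 and 16.1 (0.440, 0.232 to 0.796).

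The gene of p53 itself, Trp53, was within the limit in keratinocyte-like cells, at 98.9, 77.8 and 82.9 UPM, and in immune cells, at 58.3, 57.3 and 55.4. In fibroblast-like cells it was at 37.5 in WTctrl and 68.6 in RPUV (1.83, 1.24 to 2.73). Trp63, the p53 relative of the basal epidermis, was at 317, 181 and 198 in keratinocyte-like cells, 0.571 times WTctrl in WTUV (0.531 to 0.613). Mdm4, which holds p53 inactive, was at 54.0, 37.7 and 28.1 there, and in RPUV 0.520 times WTctrl (0.433 to 0.622).

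Stress transcripts also differed between these libraries. The dissociation list holds 10 immediate early and heat shock genes known to be induced during tissue dissociation. In keratinocyte-like cells 9 were lower and 0 higher in RPUV than in WTctrl, beside 23% and 16.1% of all genes. Their median log2 fold was -1.38, beside -0.09 over all genes. In WTUV over WTctrl 4 were lower, beside 14.3% of all genes, with a median of -0.56 beside -0.13. In fibroblast-like cells 7 were higher in RPUV than in WTctrl, beside 24.9% of all genes, with a median of 0.92 beside 0.17. In immune cells 4 were higher in RPUV than in WTctrl, beside 14.1%, with a median of 0.37 beside -0.02. Jun, for example, was at 1463, 793 and 551 UPM in the keratinocyte-like cells of WTctrl, WTUV and RPUV and at 474, 557 and 1046 in immune cells. Atf3, a stress factor on the ATF4 list, was at 818, 280 and 145 in keratinocyte-like cells and in fibroblast-like cells at 19.2 in WTctrl and 138 in RPUV, whereas Atf4 itself stayed within the limit in all 3 classes. The median of the dissociation list had the sign of the Cdkn1a fold in each class for RPUV over WTctrl, and its part in the Cdkn1a values was not tested. The medians of the list and of the members had the same sign in every comparison except immune RPUV over WTUV, at 0.16 and -0.40. In keratinocyte-like WTUV over WTctrl the list was at -0.56 and the members at -0.02. Any link between the list and the members was not tested.

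**Figure D4:**
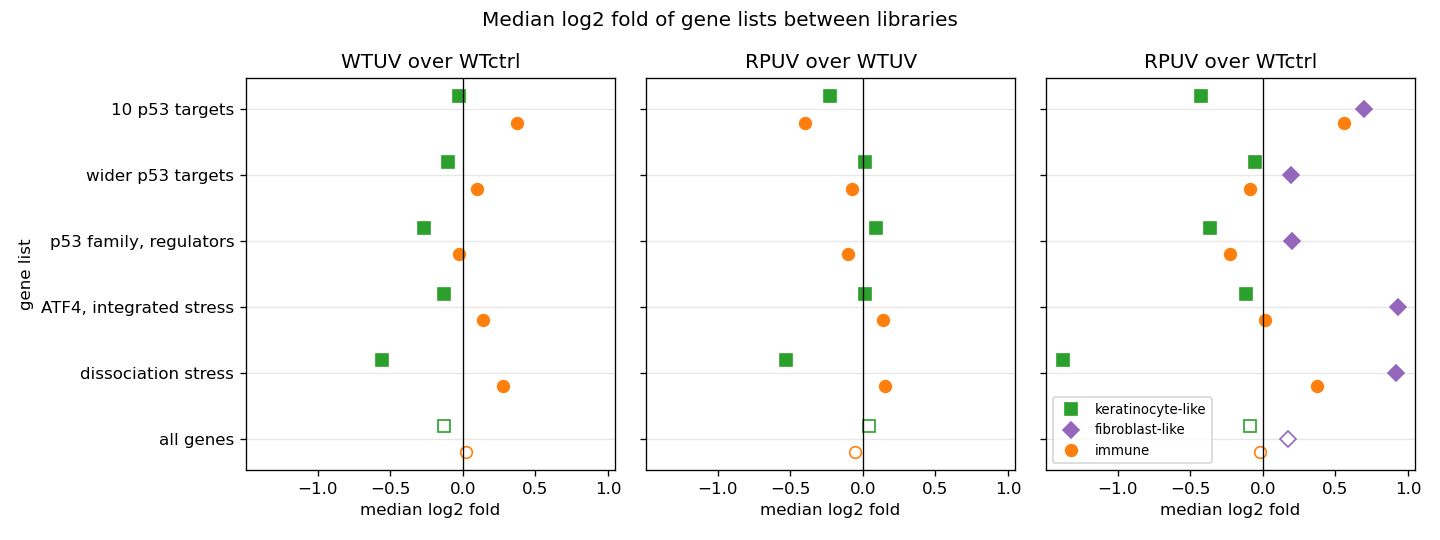
Median log2 fold between libraries (horizontal axis) of the 10 p53 targets, the other 33 genes of the wider list (labelled wider p53 targets), the p53 family and regulators, the ATF4 list and the dissociation stress list, with open symbols for all genes tested; squares are keratinocyte-like, diamonds fibroblast-like and circles immune cells. In RPUV over WTctrl the dissociation stress list is at -1.38 in keratinocyte-like and 0.92 in fibroblast-like cells, and the 10 targets are at -0.43 and 0.70.

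To set libraries of unequal depth side by side, cells were thinned to 2000 UMIs and shallower cells left out. Of keratinocyte-like cells 42.3% had a Cdkn1a UMI in WTctrl (Wilson interval 39.3 to 45.3, 1027 cells), 45.4% in WTUV (40.5 to 50.3, 390 cells) and 25.8% in RPUV (22.7 to 29.1, 722 cells), against 62.3%, 70.8% and 43.5% without thinning. Of immune cells it was 22.8% (21.3 to 24.4, 2696 cells), 39.1% (37.6 to 40.7, 4021 cells) and 41.5% (39.6 to 43.5, 2533 cells), against 31.9%, 65.5% and 57.7% unthinned. Fibroblast-like cells with a Cdkn1a UMI made up 15.4% in WTctrl (10.9 to 21.3) and 27.6% in RPUV (21.3 to 34.9). The thinned shares thus kept RPUV lowest in keratinocyte-like cells and WTctrl lowest in immune cells. In immune cells Mdm2 was found in 5.79%, 8.51% and 10.6% and Ccng1 in 7.16%, 11% and 8.61%, in the order of their levels. All classes express these genes, so no class serves as a blank; keratinocyte markers in immune cells stood at between 0.582% and 0.841% of their level in keratinocyte-like cells.

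Over the 25 profiles of a named subclass with at least 50 cells in a library, the members did not form 1 pattern. The correlation of each member with their mean standardised level ran from -0.48 for Phlda3 to 0.77 for Ccng1. The 5 other genes most like that mean, among 12094 ranked, were Tmem156, Rlf, Mir142hg, Heca and Chd2, with Pearson correlations of 0.80 to 0.83. The profiles share libraries and depth, and these correlations are a description.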

How the data were processed

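Single cells of 3 mouse skin libraries (WTctrl, WTUV and RPUV, 1 each) were captured with 10x 3′ chemistry. The files that the authors deposited hold unnormalised UMI counts of genes in called cells, made with Cell Ranger 6.1.1 per the file headers, and the submitters' processing notes name the build mm10. The depth of each library stands in the report.

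Cells with under 10% mitochondrial UMIs, over 200 genes and under 4000 genes (6000 in WTUV) were kept, following the study's methods. Libraries were integrated on 3000 features with Seurat 5.3.0 and sctransform 0.4.2 (R 4.3.3; 30 dimensions, resolution 0.8) and split further with scanpy 1.11.5 and leidenalg 0.10.2. Of 139 clusters 28 stayed unnamed. Of the 10 members, 7 were among the integration features and 0 among the naming markers. Limits used in naming were set after clusters had been seen. No doublet caller was run, and cells with markers of a second lineage were left out as an alternative.

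Raw counts were summed per library and class. Intervals are exact Poisson for levels, exact conditional (Clopper-Pearson) for folds and Wilson for shares, at 95%, and cover counting error only (scipy 1.17.1, numpy 2.4.6). Log2 folds used a pseudocount of 1 UPM. Scripts were tested on simulated data. All members were named, and of each other list up to 6 genes with the largest absolute log2 fold per comparison past the fold of 1.5, beside genes chosen after their values were seen (Trp53, Atf4). Members and lists were chosen with earlier results of these data known. Promoter windows came from RefSeq (GRCm38.p6). In all, 18 alternatives were tried, 3 of them chosen after seeing the data.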

Additional observations from a re-analysis of the deposited data

Results flagged for a closer look

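For 3 members the fold between the same libraries was called higher, past 1.5, in one cell class and lower in another. How many of all genes did so was not counted, so this number is not read as particular to the members. Others, such as Mdm2 in RPUV over WTctrl, also lay on opposite sides of 1 but within that limit in at least 1 class. Each rests on 1 library per group, and the difference between classes was not tested. Cdkn1a in RPUV over WTctrl had a fold of 0.481 in keratinocyte-like cells, 2.79 in fibroblast-like cells and 2.28 in immune cells. Gadd45a in RPUV over WTctrl had a fold of 0.576 in keratinocyte-like, 3.15 in fibroblast-like and 1.76 in immune cells, and in RPUV over WTUV 0.613 in keratinocyte-like and 1.59 in immune cells. Its immune folds lay below 1 without neutrophil-like cells. Pmaip1 went the opposite way, with RPUV over WTUV at 1.90 in keratinocyte-like and 0.560 in immune cells, and RPUV over WTctrl at 1.96 and 0.343.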

How the results depend on the processing

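Of 936 member folds recomputed under alternatives, 886 kept their sign. The 936 include pseudocounts of 10 and 0.1 UPM, which cannot change a sign. In RPUV over WTctrl they also include a limit of 4000 genes that these libraries already had. The 886 thus overstates how often a sign could have changed. No paired analysis was possible because each group had 1 library, and no library could be left out. Values are counts of members higher or lower past the fold of 1.5, or log2 folds, and the cause of each change was not tested. Percentages in brackets give the share of all genes called in the same direction under the same alternative. With classes from marker UMIs, RPUV over WTUV had 1 higher in keratinocyte-like (17.9%) and 0 in immune cells (11.8%). RPUV over WTctrl then had 1 higher in keratinocyte-like cells (18.2%). Clusters of each library alone gave 1 lower in fibroblast-like cells (13.7%). With under 4000 genes in every library, immune RPUV over WTUV had 0 higher (13.4%). With all deposited barcodes, keratinocyte-like cells had 1 higher in WTUV over WTctrl (8.89%) and 1 in RPUV over WTctrl (19.6%). In RPUV over WTUV they had 0 higher (15.5%), with Pmaip1 at -0.00. Immune RPUV over WTUV had 0 higher (12.1%). Median-of-ratios size factors left 3 higher (15.7%) and 1 lower (19%) in fibroblast-like cells. Means over cells gave, in keratinocyte-like cells, 1 lower in WTUV over WTctrl (28.9%). RPUV then had 1 higher over WTUV (23.8%) and 1 over WTctrl (16.6%). In immune cells they gave 0 lower in WTUV over WTctrl (8.47%) and 2 higher in RPUV over WTUV (11.3%). The members' median in that last comparison became 0.04.

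With cells thinned to 2000 UMIs, keratinocyte-like WTUV over WTctrl had 1 higher (12.8%) and 3 lower (30.6%). Keratinocyte-like RPUV over WTUV had 1 higher (27.8%) and 2 lower (16.4%), with a median of 0.32 and Bbc3 at 0.71. Fibroblast-like cells then had 3 higher (28.4%) and 1 lower (18.5%). Immune WTUV over WTctrl had 5 higher (17.1%), RPUV over WTUV 0 higher (13.9%) with Gadd45a at -0.08, and RPUV over WTctrl a median of 0.30. A filter of 100 UMIs left 3 higher in fibroblast-like cells (24.3%). At a fold of 2, keratinocyte-like RPUV over WTUV had 0 higher (5.64%) and 0 lower (4.8%). Keratinocyte-like RPUV over WTctrl had 0 higher (8.05%) and 2 lower (10.2%), and fibroblast-like cells 3 higher (9.89%). In immune cells a fold of 2 left 1 higher (5.66%) and 0 lower (3.55%) in WTUV over WTctrl. It left 0 higher (5.56%) and 1 lower (12.1%) in RPUV over WTUV, and 2 higher (6.56%) in RPUV over WTctrl.

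Chosen after seeing the data, leaving out neutrophil-like cells gave immune RPUV over WTUV 0 higher (12.1%) and 5 lower (22%) with Gadd45a at -0.57. RPUV over WTctrl then had a median of 0.05 with Gadd45a at -0.45. A fixed subclass mix, which could not be run in fibroblast-like cells, gave immune WTUV over WTctrl 0 lower (11.1%). Immune RPUV over WTUV had 0 higher (13.6%) with Gadd45a at -0.21, and RPUV over WTctrl a median of 0.11 with Gadd45a at -0.30. Cdkn1a kept its sign under all alternatives run in RPUV over WTctrl in the 3 classes and in immune WTUV over WTctrl. These include the alternatives that cannot change a sign.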
